A study of Mus musculus with 10 samples.

Results

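The 43 genes described here encode subunits of ligand-gated neurotransmitter receptors, the ion channels that open when glutamate, GABA, glycine or acetylcholine binds. They were chosen by gene symbol, as the genes on the array whose platform symbols match fixed patterns for AMPA, kainate, NMDA, GABA-A, glycine and neuronal nicotinic acetylcholine receptor subunits. This gave 43 of the 16593 named genes on the array, represented by 61 probes. The set held 4 AMPA, 4 kainate, 5 NMDA, 14 GABA-A, 5 glycine and 11 nicotinic subunit genes. The patterns use no measured value, but the genes were chosen with earlier results of these data known. Subunits whose symbols the patterns do not match are not among the 43. Of these, the GABA-A subunit genes Gabrp and Gabrq were on the array and were detected on none of the 10 arrays.

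Illumina MouseRef-8 bead arrays were used to profile mouse motor neurons of 3 origins, all carrying an Hb9::GFP transgene, which places green fluorescent protein under a promoter active in motor neurons. Embryonic cells came from the spinal cord of C57BL/6 embryos at E13.5. ES-derived cells were differentiated from V6.5, 1 embryonic stem cell line, and induced cells were reprogrammed from embryonic fibroblasts on a C57BL/6 background by overexpressing 10 factors whose names the labels leave out. Each origin was sorted by fluorescence into a GFP-high and a GFP-medium fraction, so both fractions were selected by the transgene. The embryonic and ES-derived fractions each had 2 arrays and the induced fractions each had 1, giving 10 arrays in all. The labels give no animal or culture for any replicate, so each p-value measures the spread between these samples and that spread may be technical.

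In neurons, AMPA, kainate and NMDA receptors let cations in on binding glutamate and carry most fast excitation, while GABA-A and glycine receptors pass chloride and are the inhibitory receptors of the mature spinal cord. In embryonic motor neurons chloride flows outward through the same channels, and GABA and glycine depolarize the cell. Nicotinic receptors of neuronal type are cation channels that respond to acetylcholine, which motor neurons themselves release onto muscle and onto spinal interneurons.

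A probe was called detected on an array where the deposited detection p-value was under 0.01. ES-derived GFP-high replicate 1, the dimmest array, stood apart before any comparison: its mean deposited intensity was 3.16, against 51.3 to 577 on the other 9 arrays, and it detected 2095 probes against 6921 to 11441. Its median correlation with the other arrays was 0.587, against 0.795 to 0.888 for the others. Differences that rest on it are therefore given with and without it. Embryonic GFP-medium replicate 1 and ES-derived GFP-medium replicate 1, with mean intensities of 51.3 and 81.6, were the next dimmest. Of 8 motor neuron markers, 3 to 5 were detected on embryonic arrays, 2 to 4 on ES-derived arrays and 3 on each induced array. Isl1 was detected on all 10 arrays and Chat, the acetylcholine-synthesizing enzyme, on 9, whereas Mnx1, the gene whose promoter drives Hb9::GFP, was detected on the 2 induced arrays and on no embryonic or ES-derived array. The labels do not say whether any of these markers was among the factors overexpressed in induced cells. Of 10 pan-neuronal markers, 7 to 8, 5 to 7 and 6 to 7 were detected on embryonic, ES-derived and induced arrays.

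Promoter sequence is shown for 2 receptor genes: Glra2, which had the largest difference from embryonic cells among the tested receptor genes, and Chrna4, the receptor gene detected on every array. Each is the RefSeq sequence (GRCm38.p6) from 250 bases before to 50 bases after the annotated start, read 5′ to 3′ on the gene's minus strand. Glra2 lies at chrX:165327344-165327643 and Chrna4 at chr2:181039128-181039427. Capitals mark TATAAA and GGGCGG on either strand, so that they also appear as TTTATA and CCGCCC. The letters are those of the TATA box and of the GC box that Sp1-type factors bind.
Glra2: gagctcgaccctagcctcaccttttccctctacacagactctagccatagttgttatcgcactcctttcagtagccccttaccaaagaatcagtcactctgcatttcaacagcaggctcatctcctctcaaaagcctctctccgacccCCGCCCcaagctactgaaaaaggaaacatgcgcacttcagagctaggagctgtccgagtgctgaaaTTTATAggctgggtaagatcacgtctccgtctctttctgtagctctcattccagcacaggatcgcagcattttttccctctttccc
Chrna4: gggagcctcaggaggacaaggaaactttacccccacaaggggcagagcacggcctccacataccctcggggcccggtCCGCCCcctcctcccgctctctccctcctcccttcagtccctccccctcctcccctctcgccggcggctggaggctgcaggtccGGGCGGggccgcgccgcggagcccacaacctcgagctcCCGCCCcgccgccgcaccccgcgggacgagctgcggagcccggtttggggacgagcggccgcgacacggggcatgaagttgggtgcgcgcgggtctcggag
The Glra2 window held 1 TATAAA and 1 GGGCGG, with a GC content of 50.3%. The Chrna4 window held 3 GGGCGG and no TATAAA, with a GC content of 74.3%. Among 32851 mouse promoters of the same length, 13.6% held TATAAA, 35.7% held GGGCGG and the median GC content was 52.7%. Of the 18 receptor genes detected on any array, 15 had a promoter in the RefSeq table. These matches describe letters and not sites of binding.

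Most of the receptor genes gave no detectable signal in these motor neurons. Of the 43, 18 were detected on at least 1 array and 25 on none. Among all 16593 named genes, 6480 were detected on none. On the embryonic arrays, GFP-high replicates 1 and 2 detected 15 and 11 of the 43 and GFP-medium replicates 1 and 2 detected 10 and 13. ES-derived GFP-high replicates 1 and 2 detected 3 and 9, ES-derived GFP-medium replicates 1 and 2 detected 4 and 10, and both induced arrays detected 7. The embryonic range of 10 to 15 met the ES-derived range of 3 to 10 only at its lower end, and the induced arrays lay inside the ES-derived range.

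**Figure D1:**
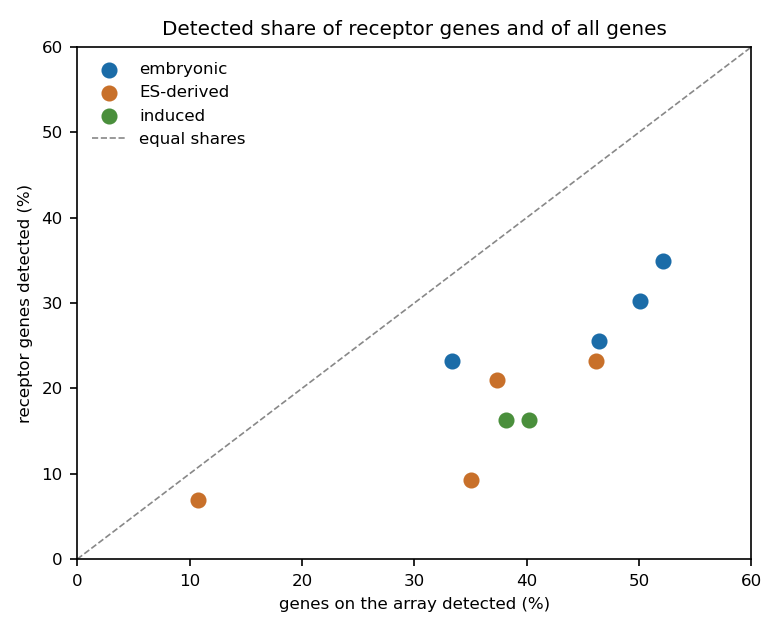
Each of the 10 points is 1 array, coloured by origin: the horizontal axis is the percentage of all 16593 named genes detected on it and the vertical axis the percentage of the 43 receptor genes (detection p under 0.01), with a dashed line at equal shares. All 10 points lie below the line, from 6.98% against 10.7% on ES-derived GFP-high replicate 1 to 34.9% against 52.1% on embryonic GFP-high replicate 1.

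The receptor share was below the share of all named genes on each of the 10 arrays. It was lowest on ES-derived GFP-high replicate 1, at 6.98% of receptor genes against 10.7% of all genes, and highest on embryonic GFP-high replicate 1, at 34.9% against 52.1%. On the induced arrays it was 16.3% against 40.2% in the GFP-high fraction and 16.3% against 38.2% in the GFP-medium fraction. Since brightness differed between arrays, the number detected is read beside the share of all genes and not by itself. Also, in sorted bulk samples fewer cells expressing a gene and less RNA per cell cannot be told apart.

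On the embryonic arrays 18 receptor genes were detected at least once and 9 on all 4: Chrna3, Chrna4, Chrnb2, Glra2, Gria1, Gria2, Gria3, Grik1 and Grik4. On the ES-derived arrays 13 were detected at least once and 2, Chrna4 and Glra2, on all 4. Without ES-derived GFP-high replicate 1, Grik1 joined them. On the induced arrays 8 were detected at least once and 6 on both: Chrna3, Chrna4, Chrnb2, Gria1, Gria2 and Grik1. As shares of the 43, detection at least once was 41.9%, 30.2% and 18.6% in embryonic, ES-derived and induced cells, against 56.1%, 50.8% and 43.4% of all named genes. Detection on every array of the origin was 20.9%, 4.65% and 14.0%, against 31.8%, 8.74% and 35.0%, so the receptor share was the lower in each of these 6 pairs. Without ES-derived GFP-high replicate 1, which detected 10.7% of all named genes, detection on every ES-derived array was 6.98% against 28.8%. Of the embryonic 9, 5 were detected in every array of embryonic and induced cells but not in every ES-derived array. Grik1 was among these 5 only with that dim array included. The share of all genes with this pattern was not counted. Glra2 was the reverse case, detected in every embryonic and ES-derived array and in neither induced array.

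**Figure D2:**
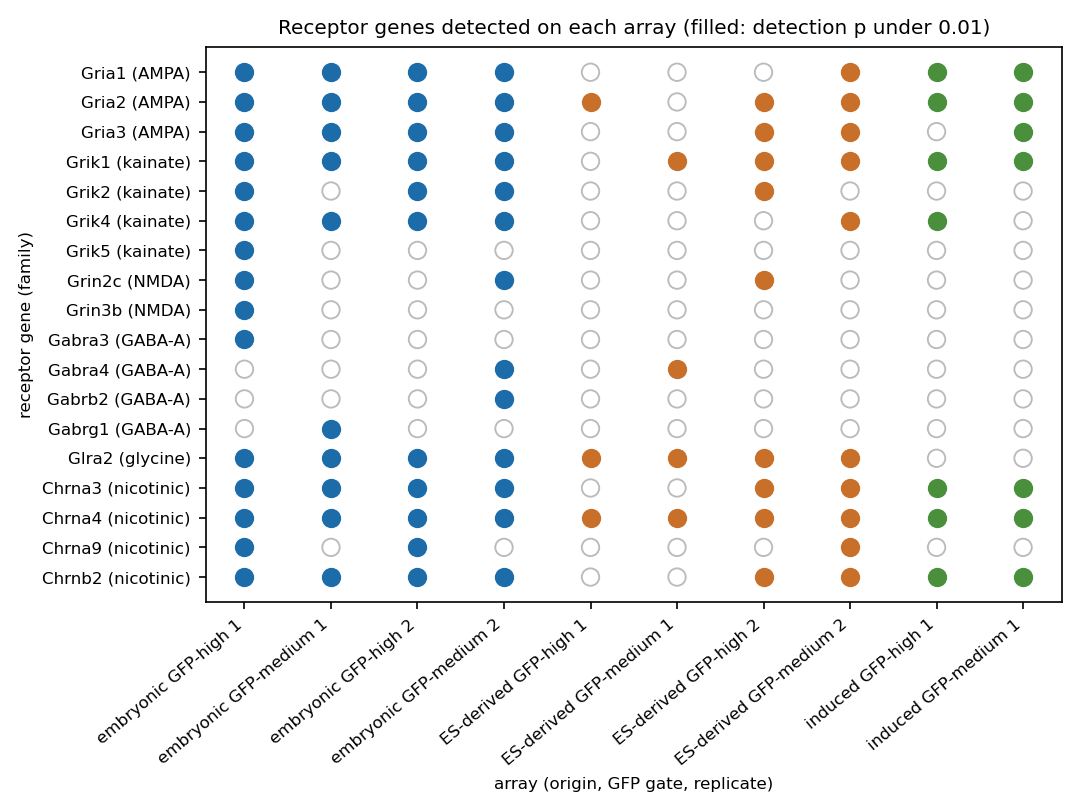
The 18 receptor genes detected on at least 1 array (rows, with the receptor family in brackets) across the 10 arrays (columns, coloured by origin); a filled circle is a gene with a probe at a detection p under 0.01 and an open circle a gene without one. Chrna4 is filled on all 10 arrays, Glra2 on the 8 embryonic and ES-derived arrays, and each of the 4 GABA-A receptor genes on 1 or 2.

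The families differed in how many members were seen. AMPA receptor genes were detected for 3 of 4 (Gria1, Gria2 and Gria3 but not Gria4) and kainate receptor genes for 4 of 4 (Grik1, Grik2, Grik4 and Grik5). NMDA receptor genes were detected for 2 of 5, Grin2c and Grin3b, with no signal for Grin2a, Grin2b or Grin2d. Nicotinic genes were detected for 4 of 11, namely Chrna3, Chrna4, Chrna9 and Chrnb2. Chrna2, Chrna5, Chrna6, Chrna7, Chrna10, Chrnb3 and Chrnb4 were not.

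The inhibitory receptors were the least represented. GABA-A receptor genes were detected for 4 of 14, namely Gabra3, Gabra4, Gabrb2 and Gabrg1, and never on more than 2 arrays. The 10 others, Gabra2, Gabra5, Gabra6, Gabrb1, Gabrd, Gabre, Gabrg3, Gabrr1, Gabrr2 and Gabrr3, were detected on none. Of the 5 glycine receptor genes Glra2 alone was detected, and Glra1, Glra3, Glra4 and Glrb were not. Glrb encodes the beta subunit that tethers glycine receptors to gephyrin at synapses. Neither of its 2 probes was detected on any array.

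For the 25 receptor genes detected on no array, the 31 probes read between -17.8 and 25.9 in deposited intensity, where 0 is the array's own background. Their lowest detection p-value was 0.0163. At a looser threshold of 0.05, Chrna7 and Glra1 each passed on at least 1 array. A gene without a detected probe is a gene not detectable at this brightness, with these probes, and its absence from the cells is not shown.

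A further 5 genes were detected on 1 array only and were not tested. Gabra3 had a deposited intensity of 20.9 on embryonic GFP-high replicate 1, where Grik5 had 69.0 and Grin3b 22.2. Gabrg1 read 12.5 on embryonic GFP-medium replicate 1, and Gabrb2 was detected on embryonic GFP-medium replicate 2. All 5 of these single detections fell on embryonic arrays, but the share of single detections over all genes was not counted. Embryonic GFP-high replicate 1 detected more named genes (52.1%) than any other array. Gabrb2 had an intensity of 21.9 where it was detected and 23.2 on ES-derived GFP-medium replicate 2, where it was not. The other 13 receptor genes passed the filter of detection on at least 2 arrays and entered the tests. Levels below are log2 intensities after background correction and quantile normalization, from the brightest probe of each gene, and are compared between arrays and never between genes.

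**Figure D3:**
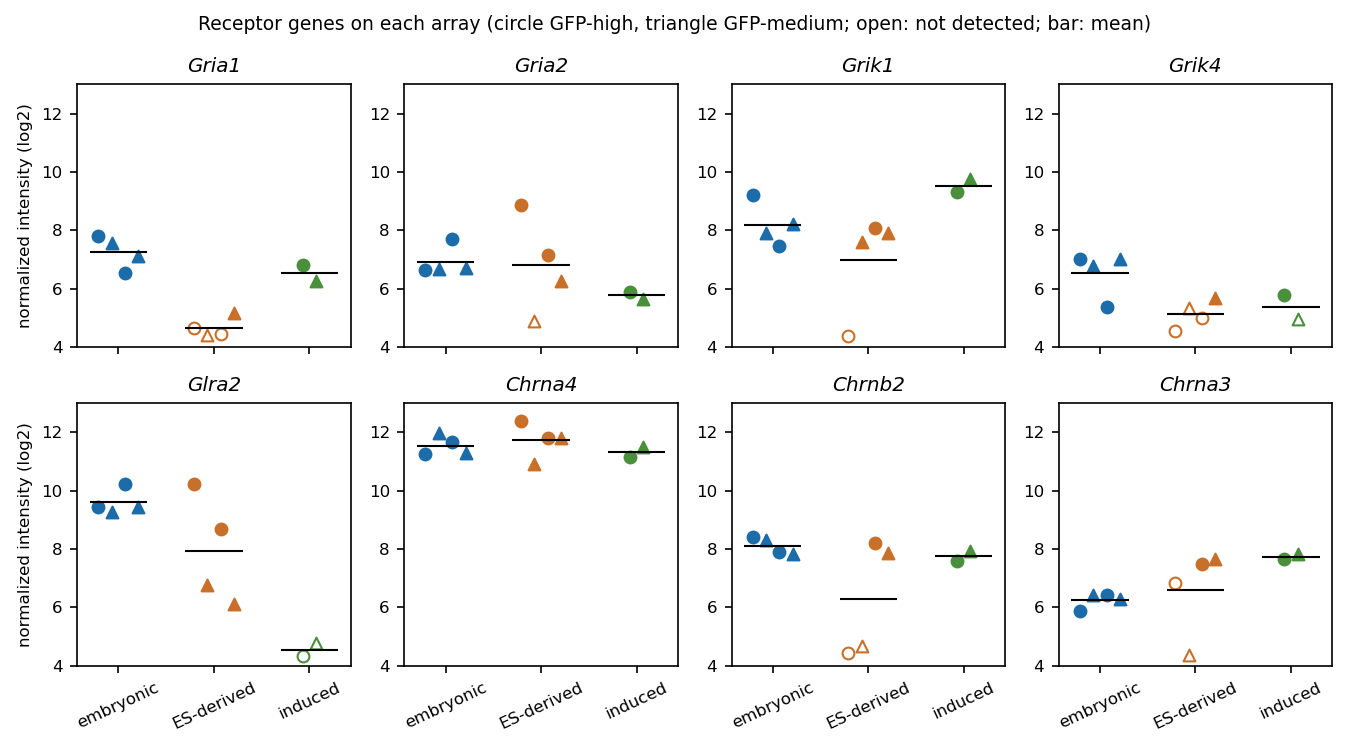
Normalized log2 intensity on each of the 10 arrays for 8 receptor genes, by origin, with circles for GFP-high, triangles for GFP-medium, open symbols for values that were not detected and a horizontal line at the mean of each origin. Gria1 is lowest in the ES-derived arrays, Glra2 is lowest in the 2 induced arrays, and Chrna4 lies between 10.91 and 12.37 on all 10.

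Among the glutamate receptors, Gria1 differed most between embryonic and ES-derived cells. It encodes GluA1, an AMPA receptor subunit. In embryonic cells it read 7.81 and 6.52 on GFP-high replicates 1 and 2 and 7.58 and 7.11 on GFP-medium replicates 1 and 2. In ES-derived cells it read 4.64 and 4.45 on GFP-high replicates 1 and 2 and 4.40 and 5.18 on GFP-medium replicates 1 and 2. The last was the only ES-derived array that detected it. On the induced arrays, both of which detected it, it read 6.80 (GFP-high) and 6.25 (GFP-medium). All 4 embryonic values lay above all 4 ES-derived values, and the induced GFP-high value lay within the embryonic range. The means were 7.26 ± 0.57 (SD, n = 4), 4.67 ± 0.36 (n = 4) and 6.53 ± 0.39 (n = 2).

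Gria1 was lower in ES-derived than in embryonic cells, with a difference of -2.59 ± 0.39 (SE) and an adjusted p of 0.0171 in the limma fit across 9679 features. The adjusted p was 0.379 under median scaling, 0.0922 with the mean of the gene's probes and 0.0703 with the replicate number as a block, so these settings end the call. The other Gria1 probes differed by -1.61 and -0.95. This call depends on which arrays are used: the adjusted p was 0.0823 without embryonic GFP-high replicate 1, 0.0625 without embryonic GFP-medium replicate 1, 0.0730 without embryonic GFP-medium replicate 2 and 0.0502 without ES-derived GFP-high replicate 2. The lowest detected level on ES-derived GFP-high replicate 1 was 8.68, above every embryonic Gria1 value, so Gria1 at its embryonic level would not have been detected there, and with values that were not detected set at each array's lowest detected level the difference was -1.06 (adjusted p = 0.462). Without that array the same bound gave 3.71-fold more in embryonic cells, and the fit on bounded values gave -1.88 (adjusted p = 0.0129), while the fit on measured values gave -2.59 ± 0.40 (adjusted p = 0.0102).

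Gria2 encodes GluA2, the subunit that makes AMPA receptors nearly impermeable to calcium once its transcript has been edited. It read 6.64 and 7.69 on embryonic GFP-high replicates 1 and 2 and 6.68 and 6.73 on embryonic GFP-medium replicates 1 and 2. In ES-derived cells it read 8.86 and 7.16 on GFP-high replicates 1 and 2, and 4.88 (not detected) and 6.28 on GFP-medium replicates 1 and 2. Both ES-derived GFP-high values exceeded both GFP-medium values, but the 8.86 is from the dimmest array, where the lowest detected level was 8.68. The induced arrays read 5.89 (GFP-high) and 5.66 (GFP-medium), below all 4 embryonic values. The means were 6.93 ± 0.51 (SD, n = 4), 6.80 ± 1.67 (n = 4) and 5.78 ± 0.16 (n = 2), and no difference between origins passed the test (induced minus embryonic -1.16 ± 0.74, adjusted p = 0.633). The ES-derived minus embryonic difference was -0.14 ± 0.60 with all arrays and -0.70 ± 0.45 (adjusted p = 0.446) without ES-derived GFP-high replicate 1. A further Gria2 probe gave 0.28 for ES-derived minus embryonic cells and -1.21 for induced minus embryonic cells, with all arrays. Gria3, another AMPA subunit gene, read 5.06 to 6.04 in embryonic, 4.39 to 5.74 in ES-derived and 5.11 to 5.32 in induced cells, and the ranges overlapped.

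Of the kainate receptor genes, Grik1 encodes GluK1 and was detected on 9 arrays. It read 9.22 and 7.45 on embryonic GFP-high replicates 1 and 2 and 7.93 and 8.21 on embryonic GFP-medium replicates 1 and 2. In ES-derived cells it read 4.39 (not detected) and 8.08 on GFP-high replicates 1 and 2, and 7.62 and 7.90 on GFP-medium replicates 1 and 2. The 3 detected ES-derived values lay within the embryonic range. The induced arrays read 9.30 (GFP-high) and 9.77 (GFP-medium), above every embryonic and ES-derived value. All these values come from 1 of the gene's 3 probes, and the others were detected on no array. The differences were 1.33 ± 0.95 against embryonic cells (adjusted p = 0.685) and 2.54 ± 0.95 against ES-derived cells (adjusted p = 0.317), so neither passed the test. With the dimmest array left out, where Grik1 was not detected, the latter was 1.65 ± 0.51 (adjusted p = 0.0996) and the former 1.33 ± 0.48 (adjusted p = 0.131).

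Grik4, whose product needs a partner such as GluK1 to form a channel, was detected on all 4 embryonic arrays at 5.36 to 7.02, on 1 ES-derived array at 5.68 and on 1 induced array at 5.77. Its means were 6.54 ± 0.80 (SD, n = 4), 5.14 ± 0.49 (n = 4) and 5.37 ± 0.57 (n = 2). The ES-derived minus embryonic difference was -1.40 ± 0.45 (adjusted p = 0.253) and, without ES-derived GFP-high replicate 1, -1.25 ± 0.45 (adjusted p = 0.189). Grik2, which encodes GluK2, was detected on 3 embryonic arrays, 1 ES-derived array and no induced array, and Grin2c, the one NMDA receptor gene tested, on 2, 1 and 0. Their differences between ES-derived and embryonic cells were -0.20 ± 0.36 and 0.23 ± 0.32, inside 1 SE of 0.

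Glra2 encodes the alpha-2 subunit of the glycine receptor, the form that predominates in the fetal spinal cord before alpha-1 takes over. In embryonic cells it read 9.45 and 10.23 on GFP-high replicates 1 and 2 and 9.27 and 9.44 on GFP-medium replicates 1 and 2. In ES-derived cells it read 10.22 and 8.68 on GFP-high replicates 1 and 2 and 6.75 and 6.11 on GFP-medium replicates 1 and 2. On the induced arrays it read 4.33 (GFP-high) and 4.77 (GFP-medium), neither of them detected. All 8 embryonic and ES-derived arrays thus detected it, and all of them read above both induced arrays. The deposited intensities behind these values were 156 to 2406 on the embryonic arrays, 19.6 to 1417 on the ES-derived arrays, and -1.86 and 5.16 on the induced arrays. The 19.6 belongs to ES-derived GFP-high replicate 1, the dim array on which normalization placed Glra2 at 10.22.

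In induced cells Glra2 was at least 21.2-fold lower than in embryonic cells, where the induced mean was taken at each array's lowest detected level. The fitted difference was -5.05 ± 0.81 (adjusted p = 0.0183, limma), between means of 4.55 ± 0.31 (SD, n = 2) and 9.60 ± 0.43 (n = 4). Leaving out 1 array at a time, the adjusted p was 0.0545 without embryonic GFP-medium replicate 1, 0.0674 without embryonic GFP-high replicate 2, 0.0805 without embryonic GFP-medium replicate 2, 0.386 without the induced GFP-high array and 0.0968 without the induced GFP-medium array. It was 9.20e-04 without ES-derived GFP-high replicate 1, with a difference of -5.05 ± 0.55.

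Between ES-derived and embryonic cells the Glra2 result turned on 1 array. With all 10 arrays the difference was -1.66 ± 0.66 (adjusted p = 0.375) and the ES-derived mean was 7.94 ± 1.87 (SD, n = 4). Without the dimmest array, it was -2.28 ± 0.49 (adjusted p = 0.0410) and passed the test. Without the 3 dimmest arrays it was -2.17 ± 0.61 (adjusted p = 0.0974) and did not. The induced minus ES-derived difference behaved likewise, at -3.39 ± 0.81 (adjusted p = 0.126) with all arrays and -2.77 ± 0.58 (adjusted p = 0.0305) without that array. Gabra4, the one GABA-A receptor gene tested, was detected on 1 embryonic and 1 ES-derived array, and its ES-derived minus embryonic difference was 0.28 ± 0.34.

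Chrna4 was detected on all 10 arrays. With Chrnb2 it forms the most common nicotinic receptor of the brain, which binds nicotine with high affinity. It read 11.24 and 11.68 on embryonic GFP-high replicates 1 and 2 and 11.96 and 11.29 on embryonic GFP-medium replicates 1 and 2. In ES-derived cells it read 12.37 and 11.79 on GFP-high replicates 1 and 2 and 10.91 and 11.81 on GFP-medium replicates 1 and 2, and in induced cells 11.15 (GFP-high) and 11.50 (GFP-medium). The 3 origins overlapped, with means of 11.54 ± 0.34 (SD, n = 4), 11.72 ± 0.60 (n = 4) and 11.32 ± 0.25 (n = 2). The ES-derived minus embryonic difference was 0.18 ± 0.39 (-0.04 ± 0.35 without the dimmest array) and the induced minus embryonic difference -0.22 ± 0.47. The 2 further Chrna4 probes gave ES-derived minus embryonic differences of 0.40 and -0.44, so the probes disagreed in sign on a difference near 0.

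Chrnb2 was detected on 8 arrays. In embryonic cells it ran from 7.82 to 8.40 and in induced cells it read 7.58 and 7.93. The ES-derived arrays split by replicate: GFP-high and GFP-medium replicate 1, both dim arrays, read 4.44 and 4.68 without detection, and the replicates numbered 2 read 8.21 and 7.86, within the embryonic range. The difference of -1.81 ± 0.86 (adjusted p = 0.483) therefore rested on those 2 dim arrays. It was -1.10 ± 0.71 (adjusted p = 0.448) with the dimmest array left out and 0.02 ± 0.31 with the 3 dimmest left out. On ES-derived GFP-medium replicate 1 the lowest detected level, 5.55, lay under the embryonic range. Embryonic GFP-medium replicate 1, a dimmer array than that, detected Chrnb2 at 8.32.

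Chrna3 encodes the alpha-3 subunit, best known from autonomic ganglia. It read 5.88 and 6.42 on embryonic GFP-high replicates 1 and 2 and 6.41 and 6.27 on embryonic GFP-medium replicates 1 and 2. In ES-derived cells it read 6.84 (not detected) and 7.49 on GFP-high replicates 1 and 2, and 4.37 (not detected) and 7.64 on GFP-medium replicates 1 and 2. The induced arrays read 7.64 (GFP-high) and 7.83 (GFP-medium). Both induced arrays and both ES-derived replicates numbered 2 read above all 4 embryonic values. ES-derived GFP-medium replicate 1 read below all 4, although its lowest detected level of 5.55 lies under the embryonic range. With all arrays the induced minus embryonic difference was 1.49 ± 0.81 (adjusted p = 0.536) and the ES-derived minus embryonic difference 0.34 ± 0.66 (adjusted p = 0.886). Without the dimmest array, they were 1.49 ± 0.78 (adjusted p = 0.303) and 0.31 ± 0.69 (adjusted p = 0.845). Without the 3 dimmest arrays, which include the one that read 4.37, the ES-derived difference passed the test, at 1.35 ± 0.29 (adjusted p = 0.0467), and there the induced difference was 1.52 ± 0.29 (adjusted p = 0.0129). Chrna9, known from the receptor of cochlear hair cells, was detected on 2 embryonic arrays and 1 ES-derived array, with an ES-derived minus embryonic difference of 0.00 ± 0.34.

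**Figure D4:**
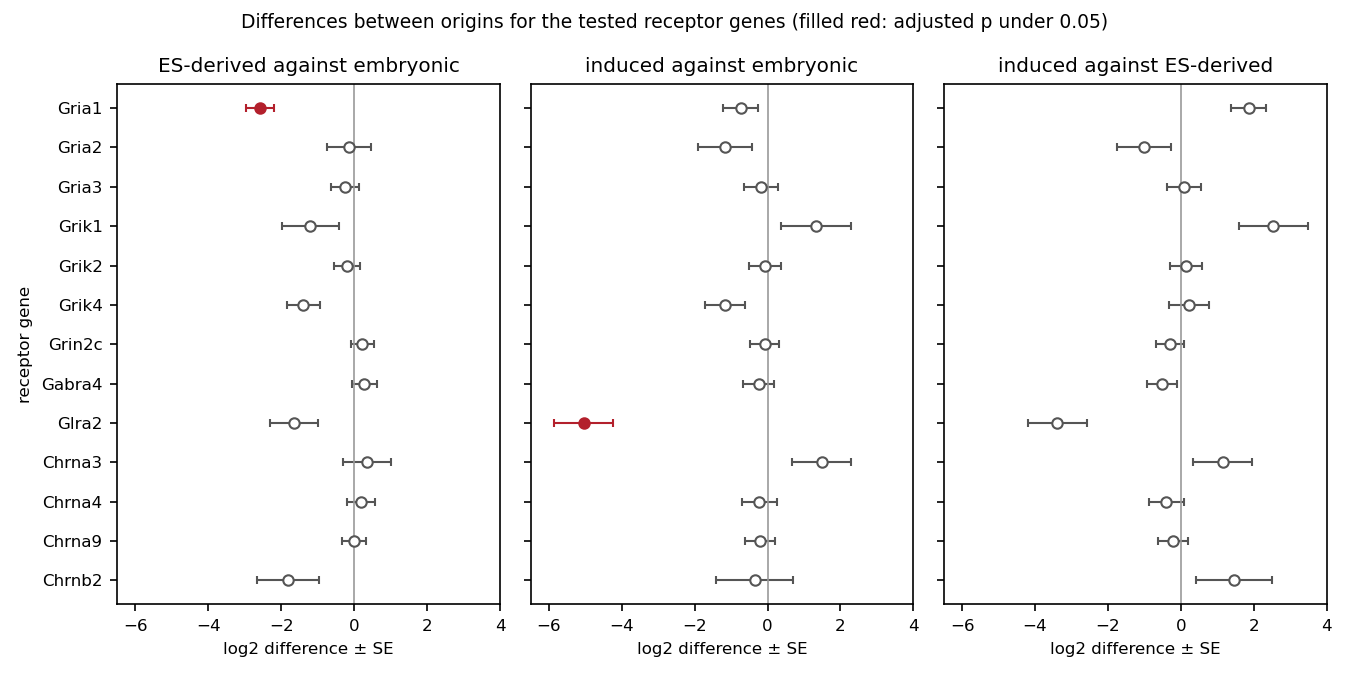
Differences in log2 intensity for the 13 tested receptor genes in the 3 comparisons between origins, with circles for the fitted value and horizontal bars for 1 SE; filled red circles have an adjusted p under 0.05. Gria1 in ES-derived against embryonic cells (-2.59) and Glra2 in induced against embryonic cells (-5.05) are the 2 filled circles.

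Over all 9679 features, 0.899% were called between ES-derived and embryonic cells at an adjusted p under 0.05 (0.816% as lower in ES-derived cells), and 1 of the 13 tested receptor genes was, Gria1. At an unadjusted p under 0.05 the counts were 11.1% of features and 3 receptor genes. Of the 13, 8 were lower and 5 higher in ES-derived cells, with a median difference of -0.20 against -0.13 over all features. Between induced and embryonic cells 1.27% of features were called (0.827% as lower in induced cells) and 1 receptor gene, Glra2. At an unadjusted p under 0.05 these were 12.6% and 1. There 11 of the 13 were lower and 2 were higher, with a median of -0.22 against -0.02. A count of 1 of 13 in each comparison is too small to set the receptor genes apart from other features.

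Between induced and ES-derived cells limma called 0.806% of features and 0 receptor genes, although 3 had an unadjusted p under 0.05, against 11.9% of features. The 3 were Glra2 (-3.39 ± 0.81), Gria1 (1.86 ± 0.48, adjusted p = 0.147) and Grik1. The median was 0.08 for the receptor genes and 0.08 for all features. These comparisons share arrays, so the 3 sets of values are not independent of each other. With the dimmest array left out, the features called were 2.79%, 6.67% and 4.12% in the 3 comparisons, with 2, 1 and 1 receptor genes. Without the 3 dimmest arrays they were 4.23%, 17.4% and 11.4%, with 2, 2 and 1.

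Whether the arrays of each pair of origins overlapped was counted as well. Between ES-derived and embryonic cells the values of 1 receptor gene, Gria1, did not overlap, against 7.3% of all features in either direction and 5.06% lower in ES-derived cells. Between induced and embryonic cells 4 did not overlap, with Chrna3 and Grik1 higher and Glra2 and Gria2 lower in induced cells, against 40.3% of features, 20.3% higher and 20% lower. Between induced and ES-derived cells 3 did not, with Gria1 and Grik1 higher and Glra2 lower in induced cells, against 21.3% of features, 13.9% higher and 7.37% lower. The receptor counts of 1, 4 and 3 in 13 set against these shares do not mark the receptor genes off from other features.

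The GFP-high and GFP-medium fractions were compared within origins. With limma, 0 receptor genes and 0% of features were called, and at an unadjusted p under 0.05 there were 0 receptor genes and 2.08% of features. No receptor gene separated the 5 GFP-high from the 5 GFP-medium arrays, against 0.248% of features. The largest differences were those of Glra2, 1.31 ± 0.59, and Gria2, 1.20 ± 0.54, each with an adjusted p of 0.962. Without the dimmest array, they were 0.82 ± 0.43 and 0.75 ± 0.39, each with an adjusted p of 0.894. For Glra2 the GFP-high minus GFP-medium difference was 0.49 in embryonic, 3.02 in ES-derived and -0.45 in induced cells, and for Gria2 it was 0.46, 2.43 and 0.22. Whether the fractions differed more in ES-derived than in embryonic cells was tested as an interaction in limma, which gave 2.54 ± 0.95 for Glra2 (unadjusted p = 0.0302, adjusted p = 0.999), and 1.77 ± 0.77 in limma without ES-derived GFP-high replicate 1 (adjusted p = 0.999). The interaction called 0 receptor genes and 0% of features in limma, with 1 receptor gene and 1.61% of features at an unadjusted p under 0.05. With 4 residual degrees of freedom this test had little power, so a count of 0 does not show that the fractions differed equally. For both Glra2 and Gria2 the brightest ES-derived value is that of GFP-high replicate 1, the dimmest array. Gria2 was also not detected on ES-derived GFP-medium replicate 1.

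Proteins that assemble, anchor or edit these receptors were followed through lists of partner genes. Of 20 genes on the array for partners of AMPA, kainate and NMDA receptors, 10 were tested and limma called 0 in each of the 4 comparisons, with 0, 4, 4 and 0 at an unadjusted p under 0.05 in ES-derived against embryonic, induced against embryonic, induced against ES-derived and GFP-high against GFP-medium cells. Neto1, an auxiliary subunit of kainate receptors, was detected on both induced arrays and, by a probe other than the one tested, on 2 embryonic arrays. The tested probe, detected on no embryonic array, differed by 1.41 ± 0.35 (adjusted p = 0.108) between induced and embryonic cells. Adarb1, the enzyme that edits the Gria2 transcript, had means of 7.91 ± 0.16 (SD, n = 2) in induced and 6.28 ± 0.51 (n = 4) in embryonic cells, a difference of 1.63 ± 0.48 (adjusted p = 0.164). Without the dimmest array, limma called 3 genes of this list between induced and embryonic cells, Adarb1 (adjusted p = 0.0285), Neto1 (0.0289) and Grip1, which encodes a scaffold that binds AMPA receptors (-2.08, adjusted p = 0.0496), and 0 in the other comparisons. Of 11 partner genes of GABA-A and glycine receptors 10 were tested and limma called 0, with 0, 0, 1 and 0 at an unadjusted p under 0.05 in the same order. Gphn, which encodes gephyrin, was detected on all 10 arrays, including those on which no Glrb probe was. Slc12a5, the transporter that extrudes chloride in mature neurons, was detected on 4 embryonic arrays, 3 ES-derived arrays and 1 induced array. Its induced minus embryonic difference was -1.57 ± 0.74 (adjusted p = 0.436). With the dimmest array left out, its induced minus ES-derived difference was the 1 call of this list, at -2.30 ± 0.51 (adjusted p = 0.0373), where all arrays gave -1.70 ± 0.74 (adjusted p = 0.410).

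For nicotinic receptors 8 of 10 partner genes were tested and limma called 0, with 2, 4, 2 and 0 at an unadjusted p under 0.05 in the same order. The 2 with the smallest p between induced and embryonic cells were Agrn, which encodes the agrin that motor axons release to cluster receptors on muscle, at -1.67 ± 0.41 (adjusted p = 0.0979), and Ric3, a nicotinic receptor chaperone, at 1.10 ± 0.39 (adjusted p = 0.250). Without the dimmest array, Agrn passed the test (adjusted p = 0.0229), the 1 call of this list. Subunits of the muscle nicotinic receptor were on the array for 5 genes, of which 3 were tested and limma called 0, with 1, 1, 0 and 0 at an unadjusted p under 0.05. Chrng, the fetal muscle subunit, was detected on 4 embryonic arrays and on no ES-derived or induced array, with differences of -1.66 ± 0.33 (adjusted p = 0.0561) and -1.67 ± 0.40 (adjusted p = 0.0973). Without the dimmest array, both passed the test, at -1.63 ± 0.33 (adjusted p = 0.0319) and -1.67 ± 0.37 (adjusted p = 0.0277).

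Genes for making, loading and clearing transmitters held 15 on the array and 10 tested. Slc1a3, a glutamate transporter typical of radial glia and astrocytes, fell by 3.68 on the log2 scale (SE 0.51, adjusted p = 0.0103) in ES-derived against embryonic cells. Slc17a6, the vesicular glutamate transporter of spinal excitatory neurons, fell by 4.68 (SE 0.85, adjusted p = 0.0313) in induced against embryonic cells. No other gene of this list was called in these 2 comparisons, and limma called 0 between induced and ES-derived cells and 0 between the fractions, with 2 and 0 at an unadjusted p under 0.05. With the dimmest array left out, the calls were 2 in ES-derived against embryonic cells (Slc1a3 -3.25, Slc17a6 -3.24) and 3 in induced against embryonic cells (Slc17a6 -4.68, Slc1a3 -3.09 and Slc32a1, the vesicular transporter for GABA and glycine, -4.81), all of them lower than in embryonic cells.

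Markers of other cell types moved with origin too. Of 8 muscle markers, 7 to 8 were detected on embryonic arrays, 1 to 4 on ES-derived arrays and 1 on each induced array, and their summed level ranged from 5395 to 9800.3, from 170.1 to 1003 and from 209 to 222 in linear normalized intensity. On the induced arrays Myl1, Myh8, Actc1, Tnnt1, Tnnc2 and Myog were not detected. Of 10 markers of other spinal neurons, 4 to 7, 1 to 6 and 2 were detected, with summed levels of 822 to 5593, 676 to 1709 and 348 to 392. Of 8 mesenchymal markers, 7, 0 to 7 and 0 to 3 were detected, with summed levels of 3528 to 7319, 305 to 1139 and 173 to 239. Of 5 blood markers, 3 to 4, 0 and 1 were detected, the last being Lyz2, a macrophage gene, and the globin genes Hbb-y, Hba-a1 and Hbb-bh1 were detected on the 4 embryonic arrays alone. Glial markers were detected for 3, 0 to 3 and 3 of 6, with Gfap, Olig2 and S100b on no array. Pluripotency markers were detected for 1 to 4, 2 to 5 and 1 of 6, with summed levels of 161 to 193, 717 to 17369 and 159 to 191, higher on every ES-derived array than on any other. The highest, 17369, was on ES-derived GFP-medium replicate 1. That array also had the lowest summed levels of motor neuron markers (225, next lowest 874) and pan-neuronal markers (1861, next lowest 6101). The muscle and mesenchymal lists were thus higher on every embryonic array than on any other, as Gria1 was against the ES-derived arrays and Glra2 against the induced arrays. The part of these marker lists, pluripotency included, in those results was not tested.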

How the data were processed

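Intensity per probe and array, on a linear scale, was taken from the authors' deposited non-normalized table. BeadStudio is named in the submitters' processing notes, with no version. Some deposited intensities lie below 0, so background had already been subtracted. The authors deposited a detection p-value for each value, per the file headers. Symbols came from GEO's platform annotation: 23978 of 25697 probes had 1 symbol, 0 had several and 1719 had none. The authors' own normalized intensity table, made by a method not stated in these sources, served as an alternative.

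Values were corrected with normexp (offset 16), taken to log2 and quantile normalized in limma 3.58.1 (R 4.3.3). Probes with a detection p-value under 0.01 on at least 2 arrays were kept (11915), and the brightest probe stood for each gene, leaving 9679 features. limma's moderated test used origin and fraction as additive terms (6 residual degrees of freedom), and a group fit (4) gave the interaction. P-values were adjusted by the Benjamini-Hochberg method over all features, with 0.05 as threshold. The fits were tested on simulated data. Figures were drawn with Python 3.11.15 and matplotlib 3.10.9.

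Groups came from the labels. The receptor genes, marker lists and partner lists were chosen with earlier results of these data known. Values on every array are given for genes called in any comparison, detected on at least 9 arrays, detected on all arrays of 1 origin and none of another, or called without the dim arrays. From each partner list up to 3 called genes, or else up to 2 with the smallest p, are named. The alternatives changed the background correction, normalization, filter, source table, probe choice, treatment of undetected values, array weights, the arrays included and the replicate block. Precision is limited by the number of arrays.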

Additional observations from a re-analysis of the deposited data

Results flagged for a closer look

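In groups of 4 arrays, 28 groups were checked, made of receptor values or of the number of receptor genes detected. Of these, 3 held 1 array whose gap to its nearest neighbour exceeded Dixon's 95% critical share of the group's range. Chance gives such a gap in about 1 of 20 groups. Gria2 read 7.69 on embryonic GFP-high replicate 2, with the other embryonic arrays at 6.64 to 6.73, a gap of 0.915 of the range. Grik4 read 5.36 on the same array, with the others at 6.79 to 7.02, a gap of 0.863. Grik1 read 4.39 on ES-derived GFP-high replicate 1, where it was not detected, with the others at 7.62 to 8.08, a gap of 0.874.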

How the results depend on the processing

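Counts of receptor genes called moved with the setting. Between ES-derived and embryonic cells the count of 1 became 0 under median scaling, with the mean of a gene's probes and with undetected values at the lowest detected level, and 2 with array weights (Gria1, Glra2) and without the 3 dimmest arrays (Gria1, Chrna3). Leaving out 1 array gave 0 to 2. Between induced and embryonic cells the count of 1 became 0 under median scaling and with no filter on dim probes (Glra2 adjusted p = 0.0505), 5 with array weights (Chrna3, Glra2, Gria2, Grik1, Grik4) and 2 without the 3 dimmest arrays, and leaving out 1 array gave 0 to 1. Between induced and ES-derived cells the count of 0 became 3 with array weights (Glra2, Gria1, Grik1) and 1 without the 3 dimmest arrays (Glra2), and leaving out 1 array gave 0 to 1. The interaction's count of 0 became 2 without ES-derived GFP-high replicate 2 (Glra2, Grik1), so leaving out 1 array gave 0 to 2 there. In the comparison of fractions every setting run gave 0. An alternative chosen after seeing the data, with undetected values at the lowest detected level and the dimmest array left out, gave 2 (Gria1, Glra2), 1 (Glra2) and 1 (Glra2) in the 3 comparisons of origins. On ES-derived GFP-high replicate 1, 8 receptor genes in place of 3 were detected at a p under 0.05. The cause of these moves was not tested.

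With the replicate number as a block over the embryonic and ES-derived arrays, the ES-derived against embryonic count was 0 (Gria1 adjusted p = 0.0703) and 37 features were called in place of 87, while the fractions and the interaction kept a count of 0. Same-numbered arrays correlated at -0.09 to 0.20 in their deviations, so the numbers were not taken as pairs, and the induced arrays carry none. The Gria1 difference ran from -1.06 to -3.94 and the Glra2 difference from -3.95 to -6.62 over the settings, the last of each from the authors' normalized values. Of the 1235 receptor values compared with the main fit, 135 had another sign, and none of these was called in either fit. Features called over all genes in the 3 comparisons were 87, 123 and 78 with all arrays and 550, 3135 and 1581 with array weights. The 3 dim arrays limit what could be detected, and with 1 array per induced fraction the spread of induced cells is that between fractions.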

Other observations

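Other transmitter receptors were sparse as well. Of 11 genes on the array for other ligand-gated channels, namely P2X receptors for ATP, serotonin-gated channels and the GABA-A subunits Gabrp and Gabrq, P2rx3 and P2rx6 were tested and each was detected on 3 of 10 arrays, none of them induced. Their ES-derived minus embryonic differences were -0.38 ± 0.35 and 0.56 ± 0.35 on the log2 scale. Of 11 genes for metabotropic receptors, which act through G proteins, 2 were tested, both muscarinic acetylcholine receptors. Chrm3 was detected on 2 arrays of each origin, with means of 4.96 ± 0.58 (SD, n = 4) in embryonic, 5.59 ± 0.54 (n = 4) in ES-derived and 5.89 ± 0.08 (n = 2) in induced cells, and no difference between origins passed the test (induced minus embryonic 0.93 ± 0.51, adjusted p = 0.538, limma). Chrm4 was detected on 2 ES-derived arrays and no other. Of both lists limma called 0 genes in the 4 comparisons, and 0 had an unadjusted p under 0.05. Gabbr1, a subunit of the metabotropic GABA-B receptor, was detected on no array.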
